A study of Homo sapiens with 30 samples.

Results

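The transcripts described here encode lysosomal hydrolases, lysosomal membrane proteins and the vacuolar proton pump, and they were followed across all 10 groups of the study. The rule names 49 genes by what their products are known to do and uses no measured value. The list was nonetheless chosen with earlier results of these data known. A gene counted as measured where the array annotation assigned a probe set to it alone, and the probe set with the highest mean signal stood for the gene. This held for 46 of the 49, all 46 passed the filter on dim probe sets, and they were tested among 10050 genes. GLB1 and ATP6V1F had only a probe set shared with another gene, and the annotation listed none for ACP5, so these 3 were not analysed here. Each group mean rests on 3 arrays, which the labels call biological replicates.

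The cells were THP-1, an established human monocytic leukaemia line. All of them, controls included, were first turned into macrophage-like cells with 82 nM phorbol 12-myristate 13-acetate for 24 h, then washed, scraped and plated again. Exposed cells received titanium dioxide nanobelts (TiO2-NB, ribbon-shaped particles) or multi-walled carbon nanotubes (MWCNT, tube-shaped carbon fibres) at 10 or 100 µg/ml, and RNA was taken from the adherent cells after 24 h or 1 h. Control cells were kept without particles for 24 h or 1 h. The labels name no genotype beyond the line itself, so the comparisons rest on cultures of 1 line and not on donors. Values are log2 intensities after RMA, levels are given as mean ± SD of 3 arrays, and log2 fold changes carry the standard error of the fit. A gene was called at a Benjamini-Hochberg adjusted p under 0.05 in limma. In a bulk RNA sample, fewer cells that make a transcript and less of it per cell cannot be told apart.

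Lysosomes are acidic organelles that break down material taken up by phagocytosis, endocytosis and autophagy, a main task of macrophages. The acid comes from the vacuolar ATPase, in which the cytosolic V1 sector splits ATP and the membrane-bound V0 sector carries protons inward. Most soluble hydrolases reach the lysosome through the mannose 6-phosphate receptors, and the transcription factor TFEB binds a palindromic motif, the CLEAR element, in the promoters of many lysosomal genes.

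Promoters were read for this motif. RefSeq promoters of 300 bases were at hand for 37 of the 49 genes. The core CACGTG, which reads the same on both strands, stood in 10 of these 37 (27%), against 816 of 8129 tested genes with a promoter in the table (10%) and 2030 of 27305 promoters in all (7.43%). The longer TCACGTGA, which contains that core, stood in 7 of 37 (18.9%), against 152 of the 8129 (1.87%). The full CLEAR element is the core with GT before it and AC after it, and so contains both. It stood in 4 of 37 (10.8%), against 63 of the 8129 (0.775%). The 37 include 3 genes not tested, GLB1, ACP5 and ATP6V1F, none of them with the core. The genes were chosen as lysosomal and the motif is known from such genes, so these shares are description and no test. The stretches from position -200 to -1 before the annotated start are printed for 5 genes, chosen after their values were known, from the RefSeq table of build GRCh38.p14, 5′ to 3′ on the gene's strand with each CACGTG in capitals. NEU1 (chr6:31862822-31863021, minus strand), MCOLN1 (chr19:7522424-7522623, plus strand) and ATP6V0D1 (chr16:67481158-67481357, minus strand) are examples of genes that rose with TiO2-NB and held the core. CLN3 (chr16:28492075-28492274, minus strand) is an example of a gene that fell and held it. LAMP1 (chr13:113297039-113297238, plus strand) had the most copies of the core among the 37.
NEU1: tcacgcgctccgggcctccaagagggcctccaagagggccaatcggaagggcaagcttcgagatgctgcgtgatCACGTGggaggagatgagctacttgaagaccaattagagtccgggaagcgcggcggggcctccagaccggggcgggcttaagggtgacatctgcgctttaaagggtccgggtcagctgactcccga
MCOLN1: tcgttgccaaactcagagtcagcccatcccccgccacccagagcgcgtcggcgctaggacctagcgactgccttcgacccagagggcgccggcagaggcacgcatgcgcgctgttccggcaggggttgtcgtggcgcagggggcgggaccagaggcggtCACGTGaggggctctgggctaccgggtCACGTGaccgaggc
ATP6V0D1: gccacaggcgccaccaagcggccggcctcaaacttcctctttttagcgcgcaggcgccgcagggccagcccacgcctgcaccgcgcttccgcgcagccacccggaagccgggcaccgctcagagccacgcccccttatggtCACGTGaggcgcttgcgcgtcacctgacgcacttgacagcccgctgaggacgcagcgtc
CLN3: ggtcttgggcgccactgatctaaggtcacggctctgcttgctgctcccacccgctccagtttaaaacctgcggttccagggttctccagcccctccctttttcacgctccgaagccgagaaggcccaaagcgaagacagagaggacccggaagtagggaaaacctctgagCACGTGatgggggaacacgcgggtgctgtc
LAMP1: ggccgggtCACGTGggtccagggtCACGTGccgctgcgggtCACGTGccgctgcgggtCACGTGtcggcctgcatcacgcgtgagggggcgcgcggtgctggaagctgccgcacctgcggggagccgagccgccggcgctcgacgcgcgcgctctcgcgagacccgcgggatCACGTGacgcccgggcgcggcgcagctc
The stretch of MCOLN1 held 2 copies, 1 of them within the full element. That of LAMP1 held 5, and those of NEU1, ATP6V0D1 and CLN3 held 1 each. In CLN3 and in LAMP1 a further copy began at position -1, ran past the annotated start and is not marked. Of the promoters at hand, the core stood in 4 of 9 genes called higher with 100 µg/ml TiO2-NB at 24 h. It stood in 1 of 8 called lower and in 5 of 17 that were not called. The other genes called higher, ATP6V1C1, ATP6V1H, ATP6V1A, ATP6V1B2, ATP6V0E1 and MANBA, had no promoter at hand. So no called V1 subunit of the pump enters this split. A match is a run of letters and not a measured binding site.

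At 24 h the high dose of TiO2-NB moved the group in both directions, with proton pump subunits, NEU1, GM2A, GLA and NPC1 up and FUCA1, GUSB and LIPA among the genes that went down. Among the 46 genes, 15 were called higher (10.9% of all genes tested were) and 8 lower (11.1% of all genes), 23 in all (22.1% of all genes). The median log2 fold change of the 46 was 0.05, against 0.01 for all genes, and in 31 of the 46 the exposed arrays all lay on the same side of the controls (33.3% of all genes). With 100 µg/ml MWCNT at 24 h, 4 were called higher (8.99% of all genes) and 6 lower (4.04%), 10 in all (13%), and the median was -0.03 against -0.01, with no overlap in 23 (30% of all genes). Both comparisons used the same 3 control arrays, so their values are given side by side and not as independent of each other. Under cyclic loess scaling the MWCNT calls were 2 higher and 8 lower. In all, 26 of the 46 genes were called in at least 1 exposure at 24 h, and 20 in none. The share of all genes called in at least 1 exposure was not computed, so these counts cannot be set against it. In the same TiO2-NB comparison 5 of 10 macrophage markers were called lower and none higher, and their part in the result was not tested.

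**Figure D1:**
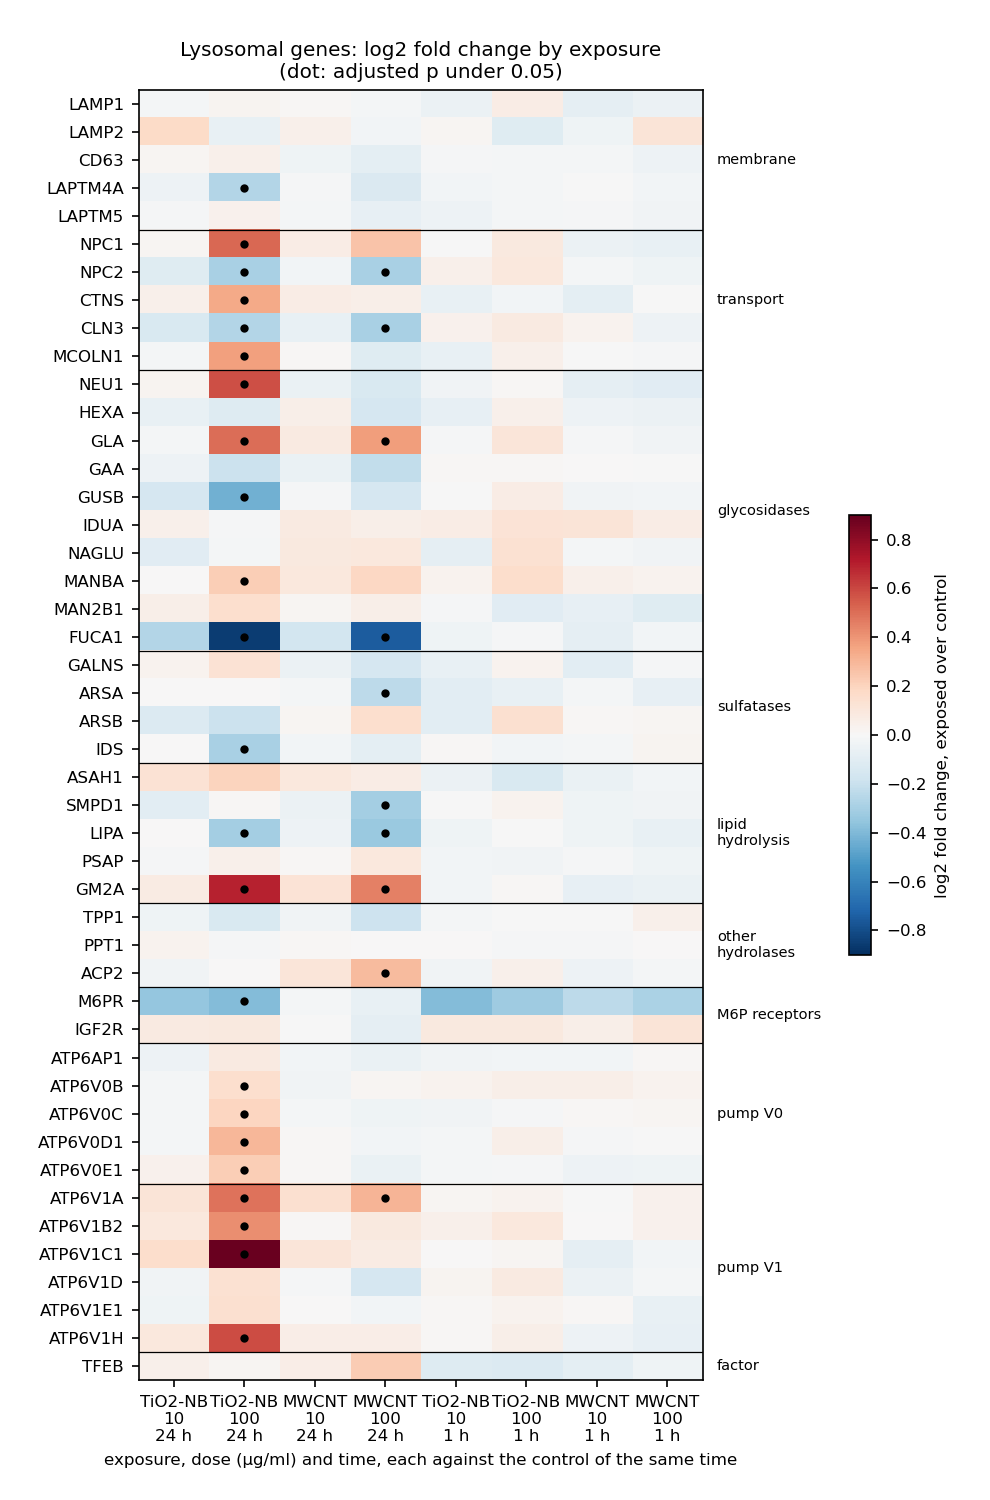
Log2 fold changes of the 46 measured genes (rows, grouped by role) in the 8 exposures (columns), each against the control of the same time. Red is higher and blue lower in exposed cells, and a dot marks an adjusted p under 0.05. The 33 dots all lie in the columns of 100 µg/ml at 24 h, 23 for TiO2-NB and 10 for MWCNT.

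Of the 11 proton pump genes among the 46, 8 were called higher with TiO2-NB (10.9% of all genes were) and none lower (11.1%). The 8 include ATP6V1A and ATP6V0E1, whose probe sets did not all go in 1 direction. Of the 6 measured V1 subunits, 4 were called higher and none lower, and of the 5 measured V0 and accessory subunits, 4 were called higher and none lower. The median log2 fold change was 0.45 over V1 and 0.19 over V0. With MWCNT, 1 of the 11 pump genes was called, ATP6V1A (13% of all genes were called).

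ATP6V1C1, the C subunit that links the 2 parts of the pump when it assembles, showed the largest rise among the 46. Its level was 11.04, 11.00 and 11.07 with TiO2-NB, 10.33, 10.12 and 10.19 with MWCNT and 10.21, 10.22 and 9.99 in the control. The 3 TiO2-NB arrays stood above all the others, while MWCNT and control overlapped. The rise was 0.89 ± 0.09 over control (1.86-fold, limma adjusted p = 1.85e-07), and the difference from MWCNT was 0.82 ± 0.09 (adjusted p = 1.28e-06). Its other probe sets stood at 0.88 and 0.16 over control.

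ATP6V1H, the H subunit that regulates ATP splitting, was the next V1 subunit by size of change. It read 11.69, 11.61 and 11.62 with TiO2-NB, 11.24, 11.07 and 11.03 with MWCNT and 10.95, 11.04 and 11.17 in the control. As for ATP6V1C1, the TiO2-NB arrays lay apart and the other 6 were mixed. The log2 fold change was 0.59 ± 0.08 over control (limma adjusted p = 4.36e-06) and 0.53 ± 0.08 over MWCNT (adjusted p = 3.06e-05).

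The A and B subunits form the ring that binds ATP. ATP6V1B2, the B subunit of most cells, read 11.88, 11.91 and 11.91 with TiO2-NB, 11.50, 11.60 and 11.61 with MWCNT and 11.52, 11.52 and 11.41 in the control. The TiO2-NB arrays were again the highest, and the rise was 0.42 ± 0.05 over control (limma adjusted p = 5.08e-06) and 0.33 ± 0.05 over MWCNT (adjusted p = 0.000145). ATP6V1A, the A subunit, was the pump gene that rose with both materials. It read 11.49, 11.32 and 11.40 with TiO2-NB, 11.20, 11.28 and 11.19 with MWCNT and 10.87, 11.01 and 10.87 in the control. The 3 groups did not overlap. The rise was 0.49 ± 0.08 with TiO2-NB (limma adjusted p = 0.000132) and 0.31 ± 0.08 with MWCNT (adjusted p = 0.0137), and the difference between the materials was not called (0.18, 95% interval 0.01 to 0.35, adjusted p = 0.12). The second probe set of ATP6V1A went the other way with TiO2-NB, -0.41, and with the mean of both the calls with TiO2-NB (adjusted p = 0.861) and MWCNT (adjusted p = 0.15) were lost. The MWCNT call was also lost without control array 1 or MWCNT array 2 (adjusted p up to 0.0669). ATP6V1D and ATP6V1E1, parts of the stalks, were not called against control, at 0.13 ± 0.07 and 0.14 ± 0.08.

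In the V0 sector, ATP6V0D1, the d subunit that couples V0 to the rotor, averaged 11.28 ± 0.02 with TiO2-NB, 10.96 ± 0.05 with MWCNT and 10.98 ± 0.03 in the control. Its rise was 0.30 ± 0.05 over control (limma adjusted p = 0.000177). ATP6V0C, the c subunit of the proton-carrying ring, averaged 11.81 ± 0.05 with TiO2-NB, 11.58 ± 0.02 with MWCNT and 11.61 ± 0.04 in the control, a rise of 0.19 ± 0.05 (adjusted p = 0.0085). Both held their calls without any 1 of the 6 arrays. ATP6V0E1 (0.22 ± 0.08) and ATP6V0B (0.15 ± 0.05), further membrane subunits, were called higher by a narrow margin (adjusted p = 0.0454 and 0.0317). ATP6V0E1 lost its call without any 1 of the arrays except control array 2, and ATP6V0B without any 1 except TiO2-NB array 1 (adjusted p up to 0.226 and 0.131). The other probe sets of ATP6V0E1 ranged from -0.26 to 0.12. ATP6AP1, an accessory protein of the pump, was not called (0.08 ± 0.05).

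**Figure D2:**
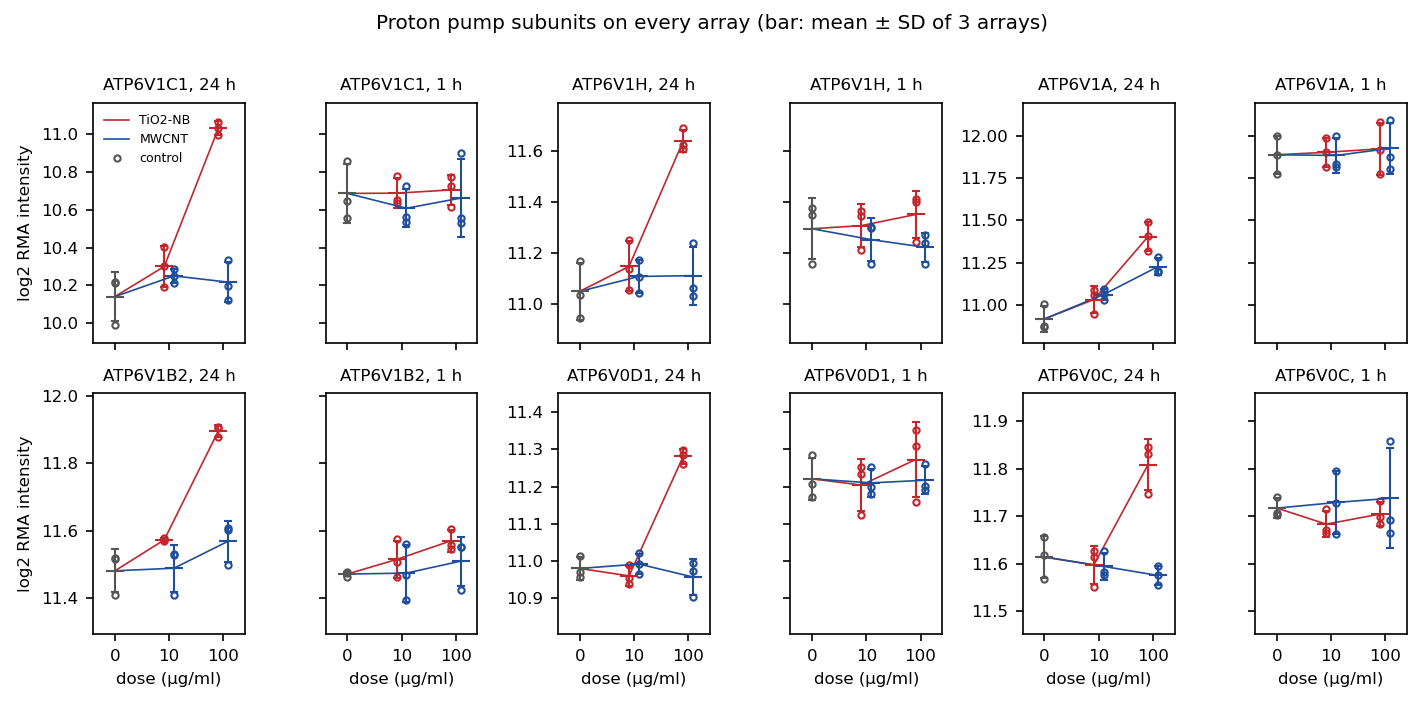
Log2 RMA intensity (vertical axis) of 6 proton pump subunits on every array against dose (0, 10 and 100 µg/ml), at 24 h on the left and 1 h on the right of each pair. Circles are arrays, bars the mean ± SD of 3 arrays, red TiO2-NB, blue MWCNT and grey the control. At 24 h the 3 arrays of 100 µg/ml TiO2-NB stood above the control arrays in each of the 6, and no difference at 10 µg/ml was called.

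Of the genes for transport across the lysosomal membrane, all 5 were called with TiO2-NB (22.1% of all genes were). Of these, 3 were higher (10.9% of all genes) and 2 lower (11.1%). NPC1, the membrane protein that exports cholesterol, read 10.67, 10.49 and 10.41 with TiO2-NB, 10.40, 10.25 and 10.12 with MWCNT and 9.95, 9.99 and 10.07 in the control. All TiO2-NB arrays lay above all MWCNT arrays and these above the control. The rise was 0.52 ± 0.10 with TiO2-NB (limma adjusted p = 0.000332), and the value with MWCNT was 0.25 ± 0.10 (adjusted p = 0.0869). NPC2, the soluble partner that hands cholesterol to NPC1, fell with both materials, by 0.29 with TiO2-NB (adjusted p = 0.00953) and by 0.29 with MWCNT (adjusted p = 0.016). It averaged 12.53 ± 0.11 with TiO2-NB, 12.53 ± 0.13 with MWCNT and 12.82 ± 0.07 in the control.

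MCOLN1 encodes the calcium channel mucolipin 1. It read 8.39, 8.17 and 8.21 with TiO2-NB, 7.996, 7.701 and 7.651 with MWCNT and 7.83, 7.83 and 8.01 in the control. The TiO2-NB arrays were the highest, the MWCNT and control arrays overlapped, and array 1 was the highest of the 3 in both exposures. The rise over control was 0.37 ± 0.10 (limma adjusted p = 0.0107), a call lost without TiO2-NB array 1 (adjusted p = 0.0656). With MWCNT the value was -0.11 ± 0.10 and not called (adjusted p = 0.574). The difference from MWCNT, 0.48 ± 0.10, was called whichever array was left out. CTNS, the cystine exporter, rose by 0.34 with TiO2-NB (adjusted p = 0.00161) and averaged 7.30 ± 0.09 with TiO2-NB, 7.02 ± 0.07 with MWCNT and 6.96 ± 0.09 in the control. CLN3, a membrane protein lost in juvenile Batten disease, fell by 0.26 with TiO2-NB (adjusted p = 0.0303) and by 0.29 with MWCNT (adjusted p = 0.0249).

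The structural membrane proteins were mostly not called. LAMP1 and LAMP2, which line the lysosomal membrane, had log2 fold changes of 0.02 ± 0.09 and -0.07 ± 0.10 with TiO2-NB and of -0.02 ± 0.09 and -0.03 ± 0.10 with MWCNT, none called. LAMP1 averaged 11.92 ± 0.18 with TiO2-NB, 11.88 ± 0.15 with MWCNT and 11.90 ± 0.10 in the control. On the other probe sets LAMP2 stood at -0.28 and -0.24 with TiO2-NB and at -0.22 and -0.20 with MWCNT. Those of LAMP1 stood between 0.0018 and 0.25 with TiO2-NB and between -0.06 and 0.09 with MWCNT. CD63, a tetraspanin of late endosomes and lysosomes, was not called against control (0.05 ± 0.05 with TiO2-NB and -0.09 ± 0.05 with MWCNT). Of the 5 genes of this kind, 1 was called with TiO2-NB (22.1% of all genes were). It was LAPTM4A, a small transmembrane protein, which fell by 0.27 (limma adjusted p = 0.00405). TFEB itself stood at 0.02 ± 0.12 with TiO2-NB and 0.23 ± 0.12 with MWCNT, neither called (adjusted p = 0.951 and 0.239).

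The 10 measured glycosidases, which clip sugars from glycolipids and glycoproteins, included 3 called higher and 2 called lower with TiO2-NB (10.9% and 11.1% of all genes were). With MWCNT 1 was called higher and 1 lower (8.99% and 4.04% of all genes). NEU1, the sialidase, read 10.61, 10.52 and 10.54 with TiO2-NB, 9.89, 9.79 and 9.82 with MWCNT and 10.01, 9.93 and 9.98 in the control. The TiO2-NB arrays were the highest and the MWCNT arrays the lowest, with no overlap between any of the 3 groups. NEU1 rose by 0.58 with TiO2-NB (1.5-fold, limma adjusted p = 6.74e-07), whereas the MWCNT value was -0.14 ± 0.07 and not called (adjusted p = 0.182). The difference between the materials was 0.72 ± 0.07, with the smallest adjusted p among the 46 in that comparison, 6.72e-08.

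GLA, alpha-galactosidase A, the enzyme missing in Fabry disease, rose with both materials. It read 10.51, 10.71 and 10.58 with TiO2-NB, 10.26, 10.59 and 10.57 with MWCNT and 10.19, 10.17 and 9.93 in the control. Both exposed groups lay above the control and overlapped each other. The rise was 0.50 ± 0.11 with TiO2-NB (limma adjusted p = 0.00189) and 0.37 ± 0.11 with MWCNT (adjusted p = 0.0257), and the difference between them was 0.13 (95% interval -0.10 to 0.36). MANBA, beta-mannosidase, was called higher with TiO2-NB at 0.22 ± 0.07 (adjusted p = 0.0272) and lost that call without control array 1 or TiO2-NB array 2 (adjusted p up to 0.189).

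FUCA1, alpha-L-fucosidase, had the largest fall among the 46 with either material. It read 7.69, 7.52 and 7.39 with TiO2-NB, 7.93, 7.54 and 7.45 with MWCNT and 8.28, 8.29 and 8.59 in the control. All exposed arrays lay below all control arrays, and the exposed groups overlapped. The change was -0.85 ± 0.20 with TiO2-NB (0.554-fold, limma adjusted p = 0.00333) and -0.75 ± 0.20 with MWCNT (adjusted p = 0.0141). The materials differed by -0.11 (95% interval -0.52 to 0.31), which was not called. GUSB, beta-glucuronidase, fell with TiO2-NB. It read 9.83, 10.05 and 10.01 with TiO2-NB, 10.17, 10.32 and 10.25 with MWCNT and 10.40, 10.46 and 10.33 in the control. The 3 groups did not overlap, with TiO2-NB the lowest. The change was -0.43 ± 0.09 with TiO2-NB (adjusted p = 0.000596) and -0.15 ± 0.09 with MWCNT (adjusted p = 0.289). HEXA, GAA, IDUA, NAGLU and MAN2B1, the remaining glycosidases, were called with neither material.

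**Figure D3:**
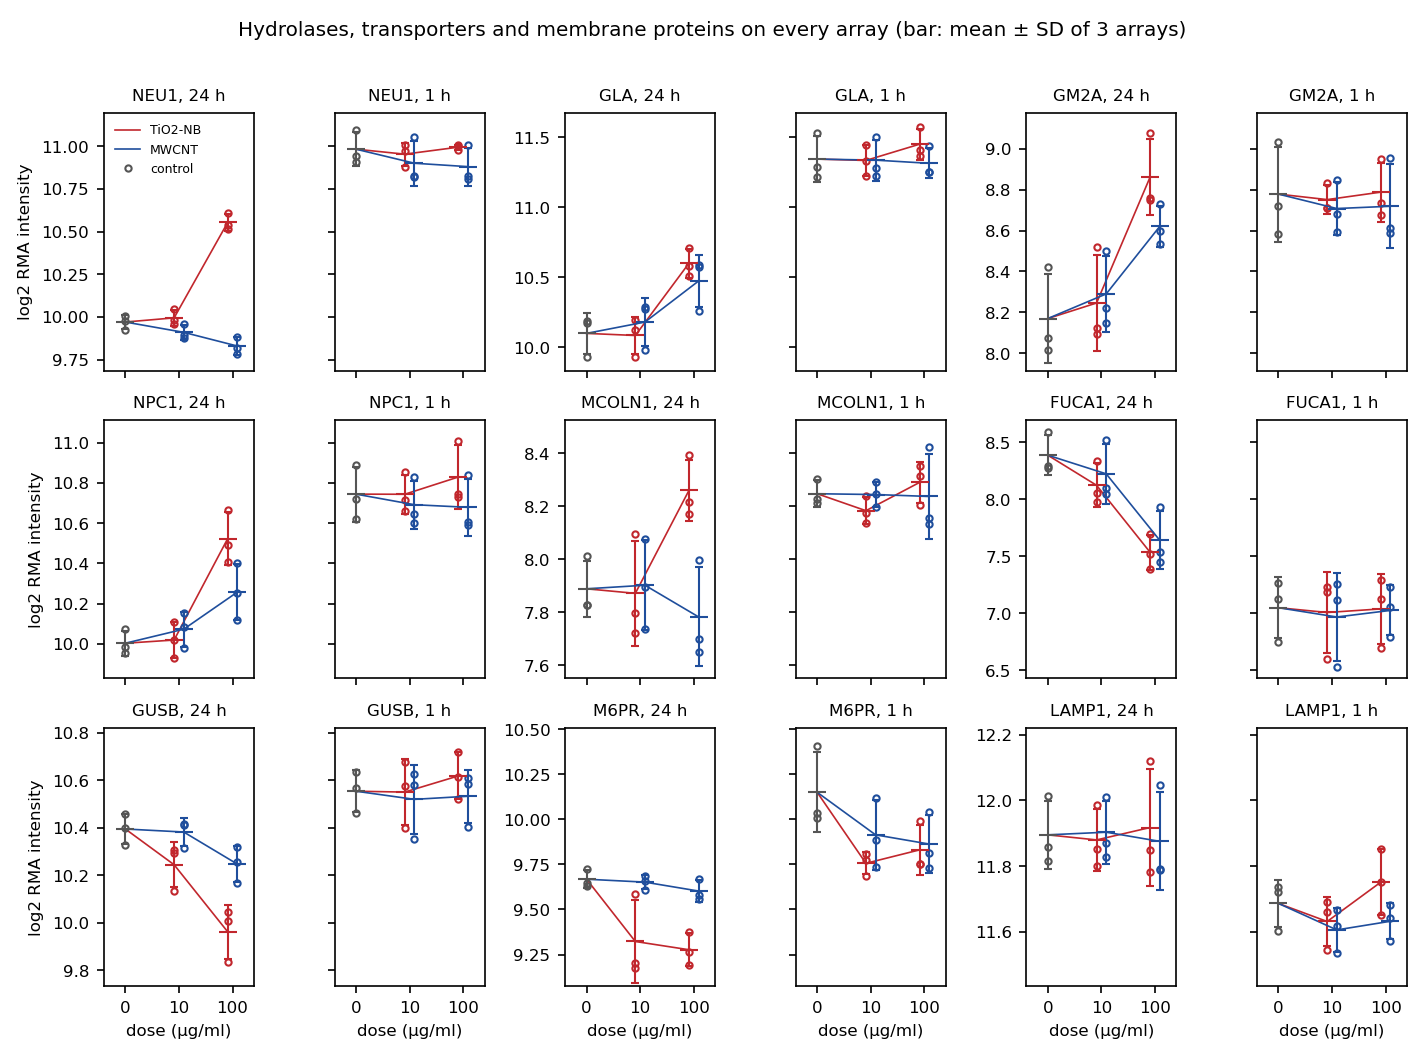
Log2 RMA intensity (vertical axis) of 9 hydrolase, transport, receptor and membrane protein genes on every array against dose (0, 10 and 100 µg/ml), at 24 h on the left and 1 h on the right of each pair. Circles are arrays, bars the mean ± SD of 3 arrays, red TiO2-NB, blue MWCNT and grey the control. NEU1 separated the materials at 100 µg/ml and 24 h (10.55 ± 0.05 with TiO2-NB, 9.83 ± 0.05 with MWCNT), GLA rose and FUCA1 fell with both, and LAMP1 was not called with either (11.90 ± 0.10 in the control).

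GM2A, the activator protein that presents ganglioside to hexosaminidase, rose with both materials on the probe set used. Its other probe sets stood between 0.09 and 0.72 with TiO2-NB and between -0.04 and 0.44 with MWCNT. The MWCNT call was lost under cyclic loess and in fits that left out 1 array. On the probe set used, GM2A read 9.08, 8.75 and 8.76 with TiO2-NB, 8.73, 8.60 and 8.53 with MWCNT and 8.01, 8.07 and 8.42 in the control. Exposed and control arrays did not overlap with either material, and all TiO2-NB arrays lay above all MWCNT arrays. The rise was 0.69 ± 0.14 with TiO2-NB (limma adjusted p = 0.000737) and 0.45 ± 0.14 with MWCNT (adjusted p = 0.0316), and the difference was 0.24 (95% interval -0.05 to 0.53). LIPA, acid lipase, which frees cholesterol from its esters, fell by 0.30 with TiO2-NB (adjusted p = 0.0139) and by 0.33 with MWCNT (adjusted p = 0.0118). SMPD1, acid sphingomyelinase, was called lower with MWCNT (-0.31 ± 0.07, adjusted p = 0.00542), while its TiO2-NB value was 0.01 ± 0.07. It averaged 8.70 ± 0.08 with TiO2-NB, 8.39 ± 0.06 with MWCNT and 8.69 ± 0.09 in the control. The other 3 probe sets of SMPD1 stood between -0.35 and -0.04 with MWCNT and between -0.38 and -0.01 with TiO2-NB. ASAH1, acid ceramidase, and PSAP, the saposin precursor, were called with neither material. The ASAH1 probe set used stood at 0.20 with TiO2-NB and 0.07 with MWCNT. Its other probe sets stood between 0.28 and 0.66 with TiO2-NB and between 0.03 and 0.18 with MWCNT.

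Of the 4 sulfatases, which remove sulfate from glycans and sulfatides, IDS fell by 0.29 with TiO2-NB (limma adjusted p = 0.0165) and ARSA fell by 0.23 with MWCNT (adjusted p = 0.0243), although the ARSA arrays of MWCNT and control overlapped. GALNS and ARSB were called against control with neither. Among the remaining hydrolases, ACP2, lysosomal acid phosphatase, rose by 0.28 with MWCNT (adjusted p = 0.0392) and stood at 0.0012 ± 0.09 with TiO2-NB. TPP1, a peptidase, and PPT1, a thioesterase, were called with neither. The TPP1 probe set used stood at -0.14 with TiO2-NB and -0.19 with MWCNT. Its other probe sets stood between -0.49 and -0.37 with TiO2-NB and between -0.31 and -0.27 with MWCNT.

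The smaller mannose 6-phosphate receptor, M6PR, fell with TiO2-NB. It read 9.38, 9.26 and 9.19 with TiO2-NB, 9.67, 9.58 and 9.56 with MWCNT and 9.72, 9.65 and 9.63 in the control. The TiO2-NB arrays lay below the rest and the other 6 overlapped. The change was -0.39 ± 0.11 with TiO2-NB (limma adjusted p = 0.0138) and -0.07 ± 0.11 with MWCNT (adjusted p = 0.775). At 10 µg/ml TiO2-NB the arrays read 9.59, 9.18 and 9.21, a difference of -0.35 ± 0.11 that was not called (adjusted p = 0.858). IGF2R, the larger receptor, stood at 0.09 ± 0.06 with TiO2-NB on its brighter probe set and at -0.80 on its other one, so no direction is given for it.

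Leaving out 1 array at a time tested how far these calls rest on single cultures. Of the 23 TiO2-NB calls, 14 were kept whichever of the 6 arrays was left out. Besides MCOLN1, MANBA, ATP6V0E1 and ATP6V0B, the calls of 5 falling genes were lost: CLN3 without control array 1 or 3 or TiO2-NB array 1, IDS without control array 2 or TiO2-NB array 1 or 2, LIPA without control array 3 or TiO2-NB array 2 or 3, M6PR without control array 1 or TiO2-NB array 3, and NPC2 without control or TiO2-NB array 3. The adjusted p then reached 0.26, 0.107, 0.0556, 0.0616 and 0.0549 for the genes in that order. In a fit of only the 6 arrays compared, 15 of the 23 were called, and ATP6V0C and LAPTM4A were among those lost (adjusted p = 0.138 and 0.0768). Among the MWCNT calls, SMPD1 was the 1 call of 10 kept throughout, and GM2A and ACP2 were no longer called under cyclic loess. The count was 5, 8 and 7 without control array 1, 2 or 3, and 8, 2 and 3 without MWCNT array 1, 2 or 3.

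The materials were then compared directly at 100 µg/ml and 24 h. The difference is between the means of the exposed groups, while its error uses the spread of all 30 arrays, and a fit of only these 6 arrays gave 14 calls. Of the 46 genes, 16 were called higher with TiO2-NB than with MWCNT (10.9% of all genes) and 3 lower (14% of all genes), 19 in all (24.9%). The median difference was 0.12, against 0.02 over all genes, and the arrays of the materials did not overlap in 28 of the 46 (40.8% of all genes). Of the 11 pump genes, 7 were called higher with TiO2-NB and none lower. These were ATP6V1C1, ATP6V1H and ATP6V1B2, described above, with ATP6V0D1 (0.32 ± 0.05), ATP6V1D (0.29 ± 0.07), ATP6V0E1 (0.28 ± 0.08) and ATP6V0C (0.23 ± 0.05). All 7 kept the call whichever array was left out.

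Beyond the pump, NEU1 and MCOLN1 led the genes higher with TiO2-NB. CTNS was higher by 0.28 (limma adjusted p = 0.00729) and SMPD1 by 0.31 (adjusted p = 0.00308). GALNS, the sulfatase missing in Morquio syndrome, was higher by 0.28 (adjusted p = 0.0385), NPC1 by 0.27 (adjusted p = 0.0472) and ARSA by 0.24 (adjusted p = 0.0136). CD63 (0.14 ± 0.05) and IGF2R (0.17 ± 0.06) passed narrowly, at adjusted p = 0.0485 and 0.0427. With the mean of both probe sets IGF2R turned to -0.16 and was not called. LAMP1 (0.04 ± 0.09), LAMP2 (-0.04 ± 0.10) and TFEB (-0.22 ± 0.12) were not called between the materials. Lower with TiO2-NB were M6PR (-0.33 ± 0.11, adjusted p = 0.0376), GUSB (-0.29 ± 0.09, adjusted p = 0.017) and ACP2 (-0.28 ± 0.09, adjusted p = 0.0256).

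Of the 19 differences, 11 were kept whichever array was left out. The calls of IGF2R, CD63, M6PR, NPC1, GALNS, ARSA, ACP2 and GUSB were not, with adjusted p up to 0.132, 0.183, 0.124, 0.205, 0.113, 0.078, 0.115 and 0.0856 in that order, and each of the 6 arrays cost at least 1 of them its call. The count fell to 12 without MWCNT array 2 and to 12 without MWCNT array 3. With the mean of all probe sets SMPD1 and ATP6V0E1 were no longer called (adjusted p = 0.107 and 0.465), and M6PR was not under either other scaling. For genes whose materials were not called apart, the 95% intervals still allowed sizeable differences, such as -0.15 to 0.21 for LIPA, -0.17 to 0.16 for NPC2 and -0.15 to 0.21 for CLN3.

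**Figure D4:**
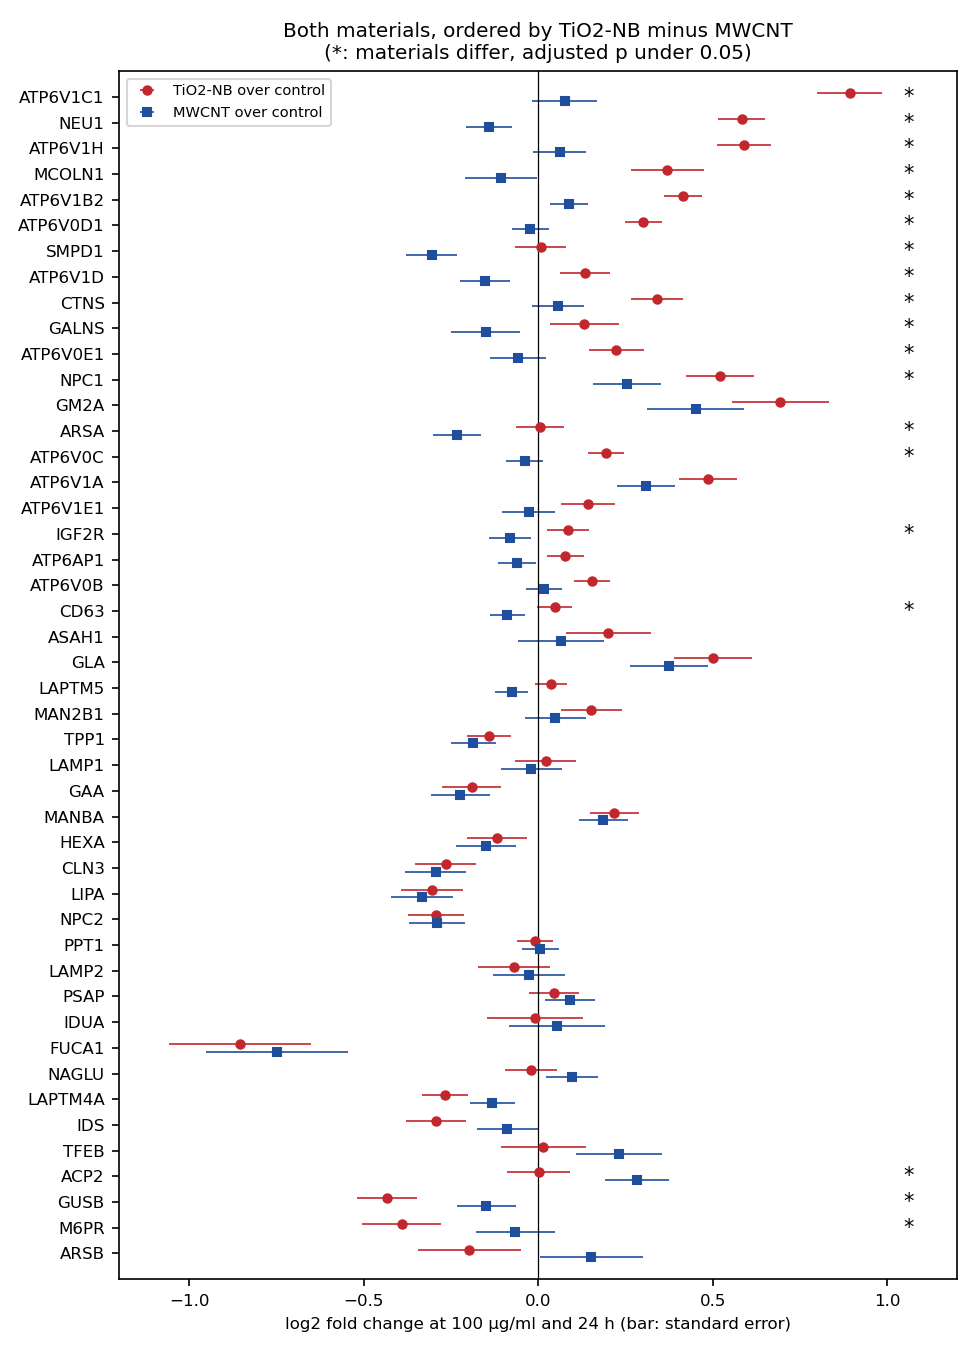
Log2 fold change over control at 100 µg/ml and 24 h (horizontal axis, bars standard errors) for TiO2-NB (red circles) and MWCNT (blue squares) in each of the 46 genes (vertical axis), ordered by TiO2-NB minus MWCNT. Stars mark the 19 genes whose materials differed at an adjusted p under 0.05. Pump subunits and NEU1 lie at the top (0.82 for ATP6V1C1), and FUCA1 lies far below 0 for both materials.

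At the low dose no lysosomal gene passed the threshold. At 24 h neither 10 µg/ml exposure gave a limma call among the 46 genes. Of all genes, 0.0199% were called with TiO2-NB and 0% with MWCNT. Members with an unadjusted p under 0.05 numbered 1 and 0, in the same order. The share of all genes at that unadjusted level was not computed, here or for the unadjusted counts below. Between 100 and 10 µg/ml of TiO2-NB, 14 were called higher at the high dose (7.38% of all genes) and 4 lower (6.1%), 18 in all (13.5%). ATP6V1C1 was 0.73 ± 0.09 higher at 100 than at 10 µg/ml (limma adjusted p = 6.37e-06), GM2A 0.62 ± 0.14 (adjusted p = 0.00362) and NEU1 0.56 ± 0.07 (adjusted p = 2.79e-06). The 6 arrays of 10 µg/ml and 24 h, both materials together, lay at 10.19 to 10.40 (median 10.27) for ATP6V1C1, at 8.09 to 8.52 (median 8.18) for GM2A and at 9.88 to 10.05 (median 9.96) for NEU1. Of the 18 calls, 10 were kept whichever array was left out, and the count fell to 11 without array 1 of 10 µg/ml TiO2-NB. LIPA (-0.31), IDS (-0.29), GUSB (-0.28) and LAPTM4A (-0.22) were lower at the high dose, and each lost its call without at least 1 array (adjusted p up to 0.0761, 0.0917, 0.143 and 0.133). So did the rising ATP6V0B, CTNS, MANBA and MCOLN1, and each of the 6 arrays cost at least 1 of these 8 its call. LAMP1 (0.04 ± 0.09), LAMP2 (-0.24 ± 0.10), CD63 (0.03 ± 0.05) and TFEB (-0.03 ± 0.12) were not called between the TiO2-NB doses, and MCOLN1 stood at 0.39 ± 0.10 (adjusted p = 0.0128). Between the MWCNT doses 1 gene was called, SMPD1, at -0.25 ± 0.07 (adjusted p = 0.0432, 4.67% of all genes called, 1.56% lower), and it lost the call without any 1 of the 6 arrays (adjusted p up to 0.183). Not called between the MWCNT doses were LAMP1 (-0.03 ± 0.09), LAMP2 (-0.07 ± 0.10), CD63 (-0.05 ± 0.05), TFEB (0.17 ± 0.12), MCOLN1 (-0.12 ± 0.10) and NEU1 (-0.08 ± 0.07).

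No call was made among the lysosomal genes after 1 h. With 100 µg/ml, limma called none of the 46 genes with TiO2-NB (1.15% of all genes) and none with MWCNT (0%), and 2 and 1 had an unadjusted p under 0.05. With 10 µg/ml it called none with either material (0% of all genes for each), and 1 had an unadjusted p under 0.05 with each. Between the materials it called none at 100 µg/ml and 1 h (1.42% of all genes) or at 10 µg/ml and 24 h (0.00995%), with 2 and 2 at an unadjusted p under 0.05. All 15 arrays at 1 h lay at 10.53 to 10.90 (median 10.65) for ATP6V1C1, at 10.81 to 11.10 (median 10.97) for NEU1 and at 6.53 to 7.29 (median 7.12) for FUCA1.

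Whether the response to 100 µg/ml differed between the times was tested as the exposed minus control difference at 24 h less that at 1 h. With TiO2-NB 12 of the 46 genes differed, 9 more positive at 24 h (7.49% of all genes) and 3 more negative (8.85%), 12 in all (16.3%). They were ATP6V1C1, ATP6V1H, ATP6V1A, ATP6V1B2 and ATP6V0D1 of the pump, GM2A, NEU1, NPC1 and CTNS, and on the negative side FUCA1, GUSB and NPC2. ATP6V1C1 had a difference in response of 0.87 ± 0.13 (limma adjusted p = 9.18e-05) and NEU1 of 0.57 ± 0.09 (adjusted p = 0.000236). The call held without any 1 of the 12 arrays for ATP6V1C1, ATP6V1H, ATP6V1A, ATP6V1B2, NEU1 and GUSB, but with the mean of both probe sets that of ATP6V1A was lost (adjusted p = 0.485). Each of the 12 arrays cost at least 1 of the other 6 its call, and the count fell to 7 without control array 2 of 24 h. With MWCNT limma called none of the 46 (3.71% of all genes), and 11 had an unadjusted p under 0.05. The share of all genes at that unadjusted level was not computed, so the 11 cannot be set against it.

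The particle-free cells also differed between the times. Between the controls at 24 h and 1 h, 11 of the 46 were called higher (20.8% of all genes) and 17 lower (16.1%), 28 in all (36.9%). The median was -0.07, against 0.03 for all genes. Of 10 macrophage markers 8 were called higher in this comparison, and their part in the result was not tested. The 24 h control arrays also enter the exposure comparisons above, so levels are given side by side and no relation between the changes is drawn.

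The falls were led by GLA (-1.24 ± 0.11, limma adjusted p = 3.22e-09), NEU1 (-1.01 ± 0.07, adjusted p = 1.68e-11) and ATP6V1A (-0.97 ± 0.08, adjusted p = 1.55e-09). MANBA fell by 0.81, CTNS by 0.74, NPC1 by 0.74, GM2A by 0.61, ATP6V1C1 by 0.55 and M6PR by 0.48. LAMP2 fell by 0.38 (adjusted p = 0.00535), while LAMP1 stood at 0.21 ± 0.09 and was not called (adjusted p = 0.0644). Of the 11 pump genes, 6 were called lower (16.1% of all genes were) and none higher (20.8%). The rises were led by FUCA1 (1.34 ± 0.20, adjusted p = 1.08e-05), CLN3 (0.75 ± 0.09, adjusted p = 2.11e-07) and ARSA (0.63 ± 0.07, adjusted p = 9.52e-08). ACP2 rose by 0.54, NPC2 by 0.47 and SMPD1 by 0.37. Of the 28 calls, 20 were kept whichever array was left out, all those called with values in this paragraph among them. ASAH1, ATP6V1H, GAA, IDS, IDUA, LIPA, MAN2B1 and PPT1 were not, and each of the 6 control arrays cost at least 1 of these 8 its call.

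Set side by side with the 1 h control, the levels of some genes called with TiO2-NB stood as follows. All of these but ATP6V1B2 were also called between the controls. NEU1 averaged 10.55 ± 0.05 with 100 µg/ml TiO2-NB at 24 h, 9.97 ± 0.04 in the 24 h control and 10.98 ± 0.10 in the 1 h control. GM2A averaged 8.86 ± 0.19, 8.17 ± 0.22 and 8.78 ± 0.23 in the same groups. For FUCA1 the values were 7.53 ± 0.16 with TiO2-NB at 24 h, 8.39 ± 0.18 in the 24 h control and 7.05 ± 0.27 in the 1 h control. In NEU1 and FUCA1 the exposed cells at 24 h lay between the controls of both times, and in GM2A they overlapped those of the 1 h control. The ATP6V1C1 arrays with TiO2-NB at 24 h (11.03 ± 0.04) lay above those of both controls (10.14 ± 0.13 at 24 h and 10.69 ± 0.15 at 1 h), and so did those of ATP6V1B2 (11.90 ± 0.02 with TiO2-NB, 11.48 ± 0.06 in the 24 h control and 11.47 ± 0.01 in the 1 h control).

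**Figure D5:**
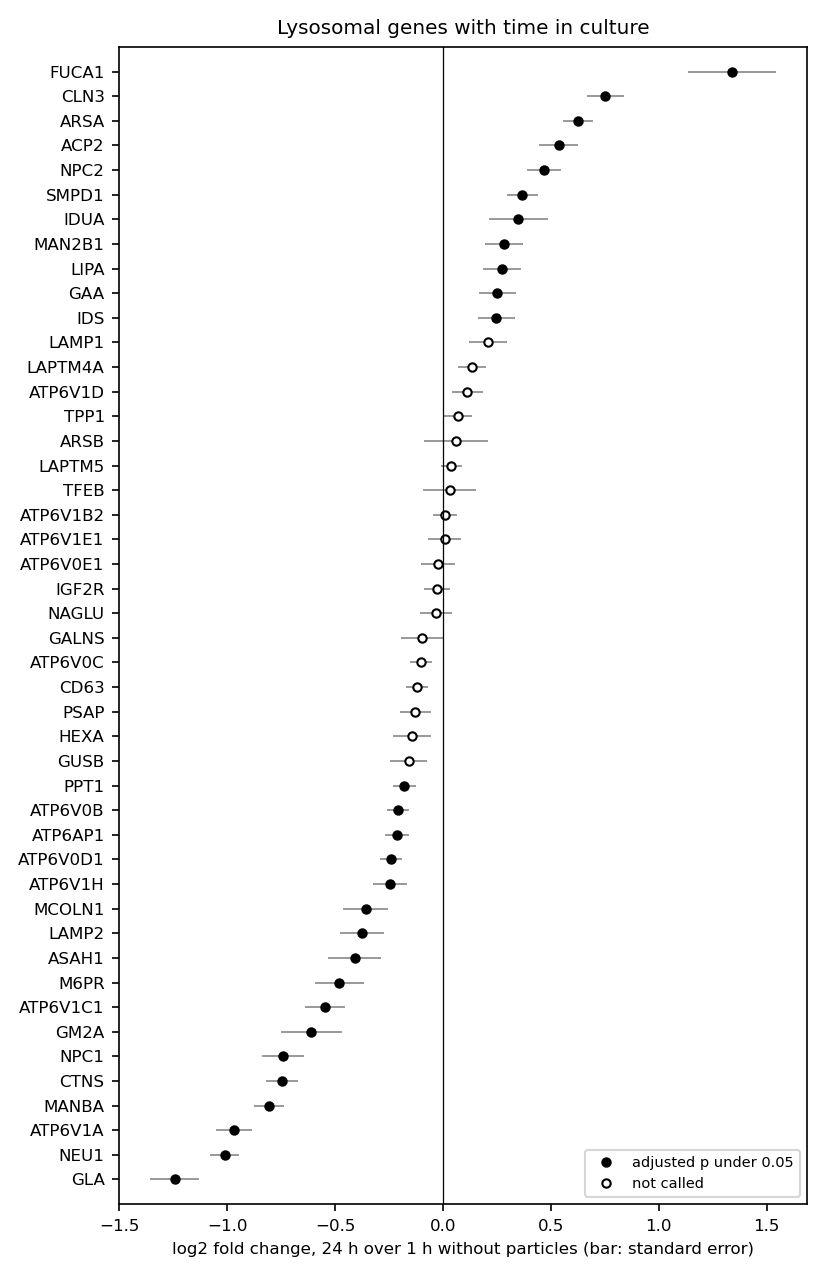
Log2 fold change of the 24 h over the 1 h control (horizontal axis, bars standard errors) for the 46 genes (vertical axis), without particles. Filled points mark the 28 genes at an adjusted p under 0.05. GLA (-1.24) and NEU1 (-1.01) lie at the bottom and FUCA1 (1.34) at the top.

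Other genes of the lysosome were counted by list at 100 µg/ml and 24 h, and the genes named from a list are among those called. With TiO2-NB, 10.9% of all genes tested were called higher and 11.1% lower, 22.1% in all, and the counts below are to be read against these shares. Of 8 further pump subunits and isoforms tested, 1 was called higher with TiO2-NB and none lower, ATP6V0A2 (0.52 ± 0.11). Of 9 further lysosomal enzymes, 5 were called lower with TiO2-NB and none higher, among them GALC, galactosylceramidase (-0.69 ± 0.08). Another of the 5, PCYOX1, averaged 2.91 with TiO2-NB and 4.16 in the control, both under the level the filter asks for, so no fold is given. Of 13 further membrane proteins and transporters, 3 were called higher and 3 lower, among them SCARB2, the receptor that carries glucocerebrosidase (-0.51 ± 0.09 with TiO2-NB). Of the 3 higher ones LAMP3, a LAMP of maturing dendritic cells, averaged 5.47 with TiO2-NB and 3.48 in the control, the control mean lying under that level, and no fold is given.

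Of 12 cathepsins, 2 were called higher and 1 lower with TiO2-NB, 3 in all against 22.1% of all genes, CTSC being the lower one (-0.84 ± 0.05, and -0.33 ± 0.05 with MWCNT). Of 14 genes of sorting and mannose 6-phosphate tagging, 1 was called higher, GGA1, a sorting adaptor (0.39 ± 0.05), and 1 lower, SORL1, a sorting receptor (-1.29 ± 0.19). Of 12 genes on a list of lysosome damage repair and galectins, 3 were called higher and 1 lower with TiO2-NB. The called genes include ANXA1, annexin A1 (0.74 ± 0.08), and CHMP2A, a subunit of the ESCRT-III filament (-0.50 ± 0.07). LGALS3, galectin 3, which gathers on broken lysosomes, was 0.68 ± 0.07 higher with TiO2-NB than with MWCNT (10.9% of all genes were called higher between the materials). That value compares the exposed groups and does not give a change from control. Of 16 genes of lysosomal signalling and TFEB control, 2 were called higher and 3 lower with TiO2-NB, 5 in all against 22.1% of all genes. Every fold change in this and the preceding paragraph was called in limma with an adjusted p of at most 0.000902, that of ATP6V0A2, and was kept whichever array was left out.

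Macrophage markers were present and shifted between groups. Of 12 macrophage markers 10 were tested, and TYROBP, an adaptor of myeloid receptors, read between 12.62 and 13.30 on the 30 arrays. With TiO2-NB at 100 µg/ml and 24 h, 5 of these 10 were called lower and none higher, such as the scavenger receptors MSR1 (-0.94 ± 0.21) and CD163 (-0.82 ± 0.15). Between the controls at 24 h and 1 h, 8 were called higher and none lower, MSR1 by 2.61 ± 0.21 and CD163 by 2.17 ± 0.15. With MWCNT 1 was called higher and none lower. The mean log2 level of the 10 ran from 9.56 to 9.61 on the arrays of 100 µg/ml TiO2-NB at 24 h, from 9.89 to 10.00 with MWCNT, from 9.92 to 10.01 in the 24 h control and from 8.88 to 9.17 in the 1 h control. Epithelial markers that passed the filter reached at most 6.03 and lymphocyte markers 6.02, and none was called with either material at 100 µg/ml and 24 h. Of 6 fibroblast markers tested, 1 was called higher with TiO2-NB, COL1A2, which read between 4.41 and 5.33 on the 30 arrays, and 1 with MWCNT, PDGFRA (1.08 ± 0.15, between 6.97 and 8.92). COL1A1, another of the 6, read between 7.66 and 8.22 on the 30 arrays. The mean of the 6 ran from 6.44 to 6.49 with TiO2-NB, from 6.49 to 6.64 with MWCNT and from 6.31 to 6.45 in the 24 h control.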

How the data were processed

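RNA from 30 cultures was hybridised to 1 human expression array each. The deposited values are log2 intensities. Per the submitters' processing notes the authors used RMA, with no version named. RMA scales arrays to a common distribution, so a change shared by most genes would not show. Of 22277 probe sets, 19064 named 1 gene, 1043 several, 2108 none and 62 were controls. A gene was tested where a probe set of its own exceeded an array's 25th percentile in 3 or more of the arrays, and the brightest stood for it.

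One limma fit (version 3.58.1, R 4.3.3) of 30 arrays and 10 group means, with 20 residual degrees of freedom, gave 16 comparisons, each with Benjamini-Hochberg adjustment over 10050 genes at a threshold of 0.05. The fit was tested on simulated data, and the outcome is not given here. The number of arrays limits the precision: the median residual SD was 0.128. Array medians ran from 6.35 to 6.46, and the lowest correlation within a group was 0.994. The members and the other gene lists were chosen with earlier results of these data known, so no p-value is given over a list.

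Named with fold changes were called genes, up to 12 in each direction at 100 µg/ml and 24 h, between the materials and between the controls, and up to 6 elsewhere, with LAMP1, LAMP2, CD63, TFEB, MCOLN1 and NEU1 given in all comparisons of 100 µg/ml at 24 h and up to 3 per other list. Beyond that rule, and after their values were seen, ATP6V0B, ATP6V0C, MANBA, some members that were not called and the cell type markers were named. So were extra values at 100 and 10 µg/ml, and ARSA and IGF2R between the materials. In the TiO2-NB response between times CTNS, ATP6V0D1 and ATP6V1B2 were added in the same way. Arrays are given singly for 12 genes. Alternatives were no filter, a stricter filter, centring on array medians, cyclic loess, the mean of all probe sets, a fit of only the groups compared, a replicate block and leaving out each array.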

Additional observations from a re-analysis of the deposited data

Results flagged for a closer look

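The response to 100 µg/ml TiO2-NB differed between 24 h and 1 h in 12 of the 46 genes by a direct test, and each value below is the exposed minus control difference at 24 h less that at 1 h, with limma's adjusted p. In the proton pump this difference was 0.87 ± 0.13 for ATP6V1C1 (adjusted p = 9.18e-05), 0.53 ± 0.11 for ATP6V1H (adjusted p = 0.00186), 0.45 ± 0.12 for ATP6V1A (adjusted p = 0.0113), 0.32 ± 0.08 for ATP6V1B2 (adjusted p = 0.00755) and 0.25 ± 0.08 for ATP6V0D1 (adjusted p = 0.0248). Among the other genes with a more positive response at 24 h it was 0.68 ± 0.20 for GM2A (adjusted p = 0.02), 0.57 ± 0.09 for NEU1 (adjusted p = 0.000236), 0.44 ± 0.14 for NPC1 (adjusted p = 0.0316) and 0.37 ± 0.11 for CTNS (adjusted p = 0.0197). On the negative side it was -0.84 ± 0.29 for FUCA1 (adjusted p = 0.0461), -0.50 ± 0.12 for GUSB (adjusted p = 0.00711) and -0.39 ± 0.11 for NPC2 (adjusted p = 0.0218).

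The call of FUCA1 was lost without any 1 of 8 of the 12 arrays (adjusted p up to 0.133) and under both other scalings, that of ATP6V1A with the mean of both its probe sets (adjusted p = 0.485), and that of NPC1 without any 1 of 6 arrays (adjusted p up to 0.0871). NPC2 lost it without 4 of the arrays, ATP6V0D1 and GM2A without 3 each and CTNS without 2, taken 1 at a time, with adjusted p up to 0.0643, 0.073, 0.0604 and 0.057 for the genes in that order. Control array 2 of 24 h cost ATP6V0D1, GM2A, CTNS, FUCA1 and NPC1 their calls.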

How the results depend on the processing

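Leaving out 1 array at a time gave 18 to 21 calls for TiO2-NB against control at 100 µg/ml and 24 h (23 with all arrays), 2 to 8 for MWCNT (10), 12 to 16 between the materials (19), 11 to 16 between the TiO2-NB doses (18), 0 to 2 between the MWCNT doses (1), 23 to 28 between the controls (28) and 7 to 12 for the TiO2-NB response between times (12). A fit of only the arrays compared gave 15, 5, 14, 10, 0, 21 and 7 in the same order, having fewer arrays from which to estimate the spread. The MWCNT dose count was also 0 with no filter and with the mean of probe sets, and 3 with the stricter filter, and the cause was not tested. With the mean of probe sets the TiO2-NB response had 8 higher and 7 lower calls. With the replicate number as a replicate block the counts were 23, 11, 20, 18, 1, 27 and 12. The numbers were not treated as pairs: in 60 pairs of same-numbered arrays the deviations from the group means correlated from -0.528 to 0.728, above 0.1 in 38, and 20 of 30 arrays correlated best with their own number, a hint from the data and not from the design. The other 9 comparisons gave 0 calls under all alternatives run.

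The sign turned in 25 single-gene values, none of them called in that setting. Over the fits that leave out 1 array, LAMP1 ran from -0.0791 to 0.0904 with TiO2-NB against control, from -0.11 to 0.039 with MWCNT against control, from -0.0592 to 0.13 between the materials, from -0.0636 to 0.11 between the TiO2-NB doses and from -0.11 to 0.0261 between the MWCNT doses. LAMP2 ran from -0.14 to 0.011 with TiO2-NB, from -0.0897 to 0.0525 with MWCNT and from -0.11 to 0.0128 between the materials. TFEB ran from -0.0578 to 0.13 with TiO2-NB and from -0.10 to 0.0815 between its doses. With the mean of probe sets LAMP1 stood at 0.0032 with MWCNT, TFEB at 0.016 between the TiO2-NB doses and IGF2R at -0.16 between the materials. Of the other single-gene values, 296 kept their direction but were no longer called, 2 became called and 2355 stayed on their side of the threshold.

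These limits apply to all values: 3 arrays a group, 1 cell line, RMA values without the scanner data, and 1 probe set a gene. Of the called genes that had several probe sets, all probe sets went in 1 direction in 7 of 9 with TiO2-NB, 3 of 4 with MWCNT, 5 of 8 between the materials and 10 of 11 between the controls.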
